A study of Mus musculus with 8 samples.

Results

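The mammalian circadian clock genes described here are 10 genes of the repressing arm of the clock and its direct output, namely Per1, Per2, Per3, Cry1, Cry2, Nr1d1, Nr1d2, Dbp, Tef and Ciart. They were chosen by symbol, and each had 1 row among the 55880 genes of the deposited count table. RNA from mouse small intestinal crypts, the epithelial pockets that hold the stem cells, was sequenced from 4 libraries labelled miR-29ab1-/- (a knockout of the miR-29a/b-1 cluster) and 4 labelled WT (wild type), all C57BL/6N and taken before irradiation. The series title frames the question as one of miR-29ab, stem cell fate and energy metabolism drawn from fatty acid oxidation. The labels give no age, litter, hour of sampling or feeding state, and they do not say whether a library is 1 mouse, so p-values measure the spread between these libraries, part of which may be technical.

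The clock runs as a feedback loop in nearly every cell. The activators Arntl (BMAL1) and Clock, or its relative Npas2, bind E-box sequences and switch on the Per, Cry, Nr1d, Dbp and Ciart genes. The Per and Cry proteins then block the activators, the Nr1d proteins (REV-ERB) repress Arntl, Npas2 and Nfil3 through sequences called ROREs, and Dbp and Tef act through D-boxes. In mouse tissues the mRNAs peak in a fixed order over the day: Arntl and Npas2, then Nr1d1 and Nr1d2, then Dbp, Tef, Ciart and Per3, then Per1 and Per2, and last Cry1. In intestine the clock is known to respond to meal times as well as to light.

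Total counts ranged from 13879472 to 17368666 per library. Mir29a, one of the genes named in the genotype, had 0 counts in every library, and Mir29b-1 had 17 counts in the libraries labelled knockout and 0 in those labelled wild type. Counts from a gene that should be deleted go against the label. They are few, and Mir29a was at 0 in the wild-type libraries too, so these counts cannot show whether either gene is present. The long noncoding RNA Lncpint had 1831 to 2608 counts in the libraries labelled knockout and 11 to 16 in those labelled wild type, a split that follows the labels. The groups are named by label throughout, as is every direction drawn from them. All 6 epithelial markers, Epcam and Lgr5 among them, had counts in all 8 libraries. Their summed level in CPM, the count scaled to library size, was 8511 to 14584 in the libraries labelled knockout. In the wild-type libraries it was 9630 to 10751 CPM. The sum was highest in labelled knockout replicate 4. Epcam, Krt8, Cdh1 and Vil1 among these markers are not particular to crypts, so the sum cannot show how pure the crypts were. Labelled knockout replicate 4 stood apart. It had the highest summed level of villus enterocyte markers (39552 CPM, against 6509 to 18567 CPM in the other 3 libraries of its group and 9406 to 17667 CPM in the wild-type group) and the lowest of cycling cell markers (389 CPM, against 637 to 973 CPM and 699 to 1020 CPM). In bulk RNA, fewer cells of a type and less RNA per cell cannot be told apart.

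The microRNAs of the genotype are shown because a seed match in a 3' UTR is how a clock mRNA could be bound by them. Their mature sequences, from RefSeq (GRCm38.p6), share the seed, bases 2 to 8, in capitals. Both lie on the minus strand, miR-29a-3p at chr6:31062673-31062694 and miR-29b-3p at chr6:31063025-31063047.
mmu-miR-29a-3p: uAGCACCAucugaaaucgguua
mmu-miR-29b-3p: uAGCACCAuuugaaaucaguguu
The 7-base match TGGTGCT was searched in the longest 3' UTR of each gene (GENCODE M21, GRCm38), where 13.3% of 20603 genes held at least 1. Of the 10 clock genes, Per3 held 3 matches and Tef held 1. The other 8 had none of these letters in the 3' UTR searched. The 30-base stretches around the matches are given with the match in capitals, for Per3 on the minus strand of chromosome 4 and for Tef on the plus strand of chromosome 15.
Per3, chr4:151005336-151005365: tttgtacagcaTGGTGCTtctcttcctgat
Per3, chr4:151004805-151004834: ctctcactgtcTGGTGCTctggtttaaaga
Per3, chr4:151004088-151004117: tgatttgaaaaTGGTGCTgtagtcaggtct
Tef, chr15:81826300-81826329: ccctgctgtgaTGGTGCTgtggtctgcttt
Among the other core clock genes, Clock and Rora each held 2 matches and Hlf held 1. A match is a description and was not tested as a binding site. Mir29b-2 and Mir29c, both on chromosome 1 and not named in the genotype, encode miR-29b-3p and miR-29c-3p. These carry the same seed, so the matches are not particular to the cluster of the genotype.

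The promoter sequences show the elements through which these genes are known to be wired together. Windows from 250 bases before to 50 bases after each start site were available from RefSeq (GRCm38.p6) for 9 of the 10 genes, all but Per2. They were searched on both strands for the E-box CACGTG, the D-boxes TTATGTAA and TTACGTAA and the RORE core TAGGTCA, none of which overlap each other in these windows. The E-box was found in 4 of the 9 (Per1, Cry1, Tef and Ciart), against 8.09% of 27025 genes with a window. The D-box was found in Per3 (2 copies), against 1.23% of genes, and the RORE in none of the 9, against 2.97%. Of the 3 genes named above as repressed by REV-ERB proteins, Nfil3 held 1 RORE, Arntl held 1 in 1 of its 2 windows, and the Npas2 window held none. The stretches below, on the strand of the gene, have the element in capitals.
Per1 E-box, chr11:69098766-69098805, plus strand: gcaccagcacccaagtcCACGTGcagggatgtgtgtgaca
Ciart E-box, chr3:95882322-95882361, minus strand: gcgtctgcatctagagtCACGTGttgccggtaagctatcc
Cry1 E-box, chr10:85185092-85185131, minus strand: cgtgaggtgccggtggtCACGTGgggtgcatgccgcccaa
Per3 D-box, chr4:151044847-151044886, minus strand: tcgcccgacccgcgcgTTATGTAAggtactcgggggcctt
Per3 D-box, chr4:151044800-151044839, minus strand: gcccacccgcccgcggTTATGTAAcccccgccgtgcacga
Arntl RORE, chr7:113207521-113207560, plus strand: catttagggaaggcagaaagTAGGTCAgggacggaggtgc
Nfil3 RORE, chr13:52981029-52981068, minus strand: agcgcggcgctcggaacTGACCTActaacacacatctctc
These are letters in a fixed window, and their absence from the windows of Dbp or Nr1d1 says nothing of elements elsewhere in those genes.

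No clock gene passed the test between the groups, while most of them varied several-fold between libraries of the same label. None of the 10 passed an adjusted p of 0.05 in edgeR's quasi-likelihood test, where 3 of 14897 genes (0.0201%) did, and none had an unadjusted p under 0.05, against 2.7% of all genes. DESeq2 and limma-voom also called 0 of the 10. All 10 passed the filter on low counts. The groups overlapped for each of the 10, and the share of genes tested that did not overlap was 1.53%. With shares as small as 2.7% and 1.53%, finding none among 10 genes does not set them apart from the rest. On the log2 scale 6 fold changes were above 0 and 4 below, with a median of 0.056 beside 0.011 over all genes tested.

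**Figure D1:**
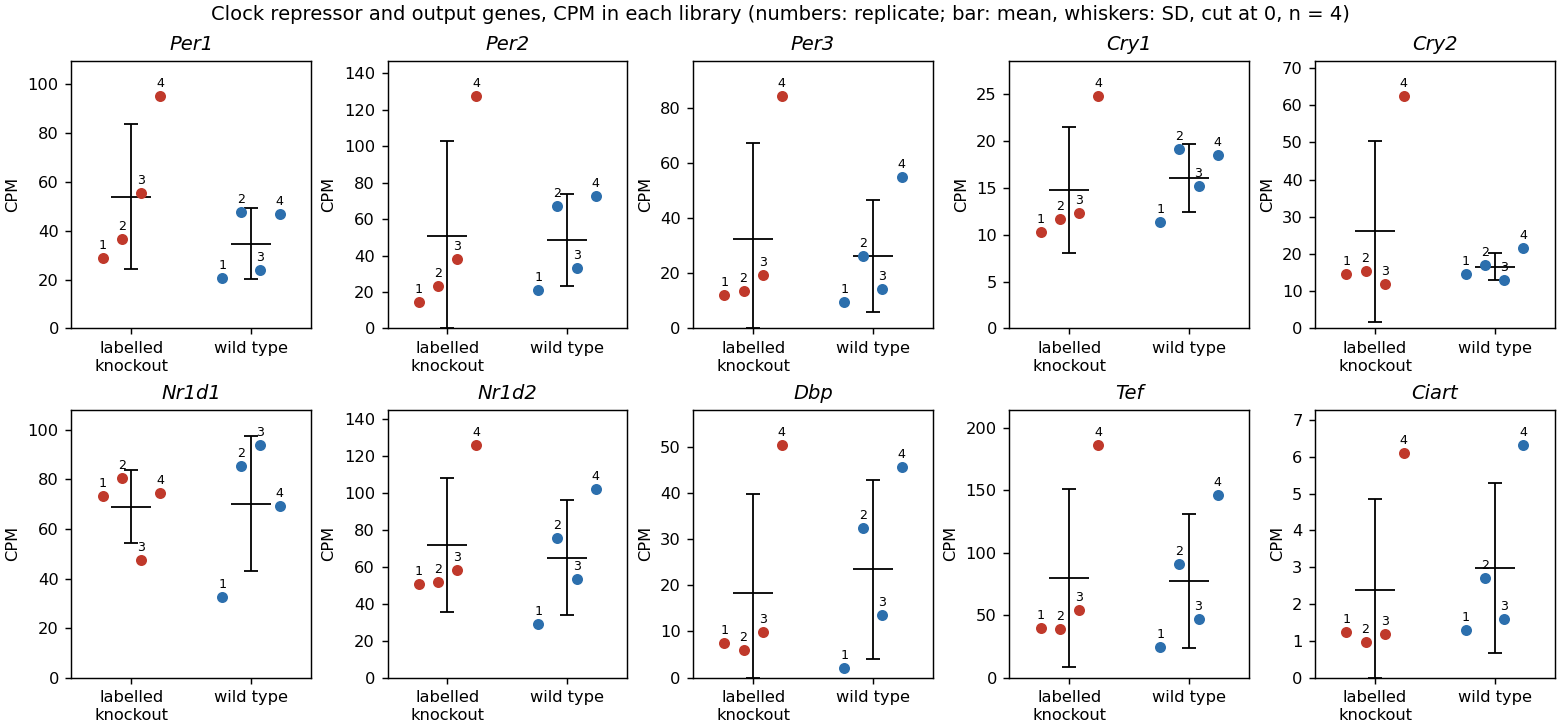
CPM of the 10 clock genes (y axis, linear) in the 4 libraries labelled knockout and the 4 wild-type libraries, with replicate numbers beside the points; horizontal bars are means and whiskers SD (n = 4 each), cut at 0. Labelled knockout replicate 4 is the highest of all 8 libraries for 8 of the 10 genes, and wild type replicate 1 is the lowest for 6.

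On a scale that allows comparison between genes, the authors' deposited FPKM (fragments scaled to gene length and library size), Nr1d1 was the most abundant of the 10. It averaged 22.2 ± 4.71 FPKM in the libraries labelled knockout and 22.7 ± 8.80 FPKM in the wild-type libraries (SD, n = 4 each). Nr1d2, Tef, Per2, Per1 and Dbp followed, with means over all 8 libraries between 12.5 and 6.96 FPKM. Cry1, Cry2 and Per3 lay between 4.58 and 3.04 FPKM, and Ciart was lowest at 1.18 FPKM. Neighbours in this order between Nr1d2 and Dbp differed by less than their SDs, which were 2.59 to 9.09 FPKM within a group.

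The Period genes encode the repressor proteins that carry the negative feedback. Per1 (chromosome 11, 69095217 to 69109960, plus strand, GRCm38) had 28.8, 36.7, 55.4 and 95.2 CPM in labelled knockout replicates 1 to 4, against 20.6, 47.8, 23.8 and 46.8 CPM in wild-type replicates 1 to 4. Labelled knockout replicates 3 and 4 lay above all wild-type libraries, and the other 2 lay among them. The log2 fold change of Per1 was 0.64 (SE 0.41, adjusted p = 0.994 in the edgeR test); leaving out labelled knockout replicate 4 gave 0.22. Per1 is also an immediate early and glucocorticoid-induced gene. The summed level of 8 immediate early genes was 833 CPM in labelled knockout replicate 4, against 237 to 534 CPM in the rest of its group and 261 to 370 CPM in the wild-type group. The summed level of 8 glucocorticoid and fasting response genes was 2460 CPM in that library, against 578 to 688 CPM and 374 to 622 CPM. The part of either in the Per1 values was not tested.

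Per2 (chromosome 1, 91415982 to 91459324, minus strand) had 14.6, 23.4, 38.0 and 128 CPM in labelled knockout replicates 1 to 4, against 21.1, 67.3, 33.3 and 72.6 CPM in the wild-type replicates in the same order. The lowest and the highest library of all 8 both carried the knockout label, 8.72-fold apart. The log2 fold change was 0.066 (SE 0.66, adjusted p = 0.998 by edgeR), and it was -0.93 without labelled knockout replicate 4. Per3 (chromosome 4, 151003652 to 151044665, minus strand), the gene with 3 miR-29 seed matches, had 12.3, 13.5, 19.3 and 84.5 CPM against 9.62, 26.2, 14.5 and 55.2 CPM in the wild-type libraries. Replicate 4 was the highest of each group. Its log2 fold change was 0.29 (SE 0.73, adjusted p = 0.994 by edgeR), -0.81 without labelled knockout replicate 4 and 0.93 without wild type replicate 4.

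The cryptochromes are the partners of the Per proteins in repression. Cry1 (chromosome 10, 85131700 to 85185064, minus strand) was among the steadier genes, with 10.3, 11.6, 12.4 and 24.8 CPM in labelled knockout replicates 1 to 4 and 11.3, 19.2, 15.2 and 18.6 CPM in the wild-type replicates. Apart from labelled knockout replicate 4 the values of both groups lay within 10.3 to 19.2 CPM. Its log2 fold change was -0.12 (SE 0.30), and -0.49 without that library. Cry2 (chromosome 2, 92403646 to 92434043, minus strand) had 14.6, 15.4, 12.02 and 62.5 CPM against 14.8, 17.2, 13.0 and 21.6 CPM. It was 62.5 CPM in a single library and 12.02 to 21.6 CPM in the other 7. The log2 fold change of 0.65 (SE 0.51) became -0.25 without labelled knockout replicate 4, and both Cry genes had an edgeR adjusted p of 0.994.

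Nr1d1 and Nr1d2 encode REV-ERB alpha and beta, nuclear receptors that repress Arntl. Nr1d1 (chromosome 11, 98767932 to 98775333, minus strand) had 73.3, 80.5, 47.4 and 74.6 CPM in labelled knockout replicates 1 to 4, against 32.6, 85.3, 93.9 and 69.4 CPM in the wild-type replicates. It was low in labelled knockout replicate 3 and wild type replicate 1 and within 69.4 to 93.9 CPM in the other 6 libraries, so replicate 4 of either group was not its highest. Nr1d2 (chromosome 14, 18204054 to 18239127, minus strand) had 50.4, 52.0, 58.2 and 126 CPM against 28.9, 75.6, 53.1 and 102 CPM in the wild-type libraries. Here replicate 4 was the highest in each group, as for Per3. The log2 fold changes were -0.028 (SE 0.30, adjusted p = 0.998) for Nr1d1 and 0.14 (SE 0.41, adjusted p = 0.994) for Nr1d2, both by edgeR, and Nr1d2 was at -0.27 without labelled knockout replicate 4.

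Dbp and Tef encode PAR-domain bZIP factors, which carry clock time to metabolic and detoxification genes. Dbp (chromosome 7, 45705088 to 45710203, plus strand) varied the most of the 10. It had 7.42, 6.05, 9.84 and 50.4 CPM in labelled knockout replicates 1 to 4, against 2.14, 32.5, 13.6 and 45.6 CPM in the wild-type replicates. Labelled knockout replicate 4 and wild-type replicates 2 and 4 formed the high end, and the lowest value was wild type replicate 1. The highest and lowest libraries were 23.5-fold apart. Their exact 95% Poisson intervals, which cover counting error only, were 46.6 to 54.5 CPM in labelled knockout replicate 4 (644 counts) and 1.49 to 2.98 CPM in wild type replicate 1 (35 counts). The log2 fold change between groups was -0.35 (SE 0.90, adjusted p = 0.994 by edgeR), and it was -1.59 without labelled knockout replicate 4 and 0.18 without wild type replicate 4.

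Whether reads were counted by strand is not known here, and Dbp shares 737 bases with Sphk2 on the opposite strand, as Nr1d1 does 1075 bases with Thra. Sphk2 ranged from 85.3 to 125 CPM in the libraries labelled knockout and from 92.9 to 107 CPM in the wild-type libraries. Thra ranged from 98.3 to 125 CPM and from 89.0 to 123 CPM. Neither neighbour varied as widely as the clock gene it overlaps.

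Tef (chromosome 15, 81802421 to 81826863, plus strand) ran with Dbp, at 39.5, 38.96, 53.9 and 186 CPM in labelled knockout replicates 1 to 4, against 24.3, 90.7, 47.1 and 146 CPM in the wild-type replicates. The same 3 libraries were high, namely labelled knockout replicate 4 and wild-type replicates 2 and 4. Its log2 fold change was 0.046 (SE 0.65, adjusted p = 0.998 by edgeR) and -0.80 without labelled knockout replicate 4. Ciart (chromosome 3, 95878503 to 95882251, minus strand), a repressor of the activator complex also known as CHRONO, was the least abundant. It had 1.25, 0.976, 1.18 and 6.11 CPM against 1.29, 2.70, 1.58 and 6.32 CPM, from 15 to 94 counts per library. Both replicate 4 libraries were high and the others lay at or under 2.70 CPM. Its log2 fold change was -0.33 (SE 0.71, adjusted p = 0.994 by edgeR), -1.38 without labelled knockout replicate 4 and 0.33 without wild type replicate 4. Ciart overlaps the noncoding gene C920021L13Rik on the opposite strand, which had 97 counts in all libraries together. Per3 lies within Camta1 on the same strand, which had 974 counts beside 3424 for Per3.

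**Figure D2:**
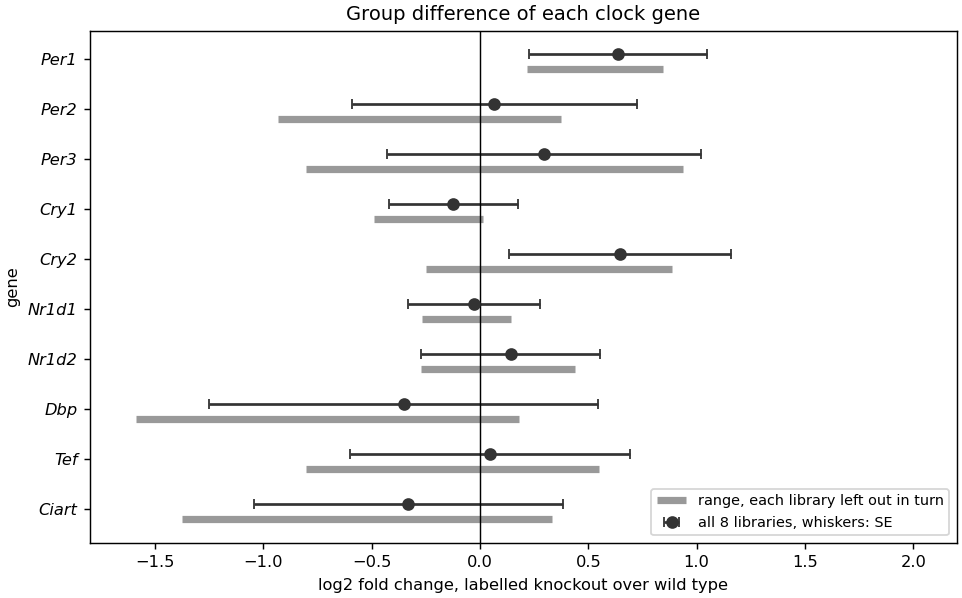
Log2 fold change, labelled knockout over wild type (x axis), of each clock gene (y axis), with points and SE whiskers from all 8 libraries and grey bars for the range when each library was left out in turn. The bars of 9 genes cross 0, and the bar of Per1 runs from 0.22 to 0.84.

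The spread within groups was wide for these genes as compared with the transcriptome. The within-group SD of log2 CPM was 1.68 for Dbp, larger than for 99.5% of the 14897 genes tested. Per3, Per2, Tef and Ciart lay between the percentiles 98.1 and 97.0, with SDs of 1.19 to 1.07. Cry1 had the smallest SD of the 10, 0.47, at percentile 73.2. Such a spread was not particular to clock genes, since the 8 enterocyte markers lay between percentiles 90.5 (Fabp1) and 97.1 (Fabp2). The absolute group difference was smaller than the within-group SD for each of the 10 genes, at 0.91 of it for Per1 and 0.042 of it for Tef.

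The activators gave the mirror image. Arntl, which encodes BMAL1, had 41.3, 31.4, 28.2 and 9.08 CPM in labelled knockout replicates 1 to 4, against 44.1, 18.6, 25.1 and 10.02 CPM in the wild-type replicates. It was lowest in the replicate 4 libraries, where Dbp, Per3 and Ciart were highest. Npas2 had 45.1, 45.3, 15.1 and 28.0 CPM against 38.7, 18.8, 29.9 and 13.0 CPM. Nfil3, a bZIP repressor that competes with Dbp for D-boxes, had 22.2, 15.3, 8.60 and 9.24 CPM against 24.3, 6.77, 6.26 and 6.996 CPM. Arntl and Nfil3 were both highest in wild type replicate 1, the library with the least Dbp. Clock is known to cycle little in most tissues. It was flat, at 84.0 to 88.0 CPM in the libraries labelled knockout and 79.3 to 95.5 CPM in the wild-type libraries, with -0.0041 (SE 0.10, adjusted p = 0.998 by edgeR) as its log2 fold change and a within-group SD at percentile 2.69. Hlf, the third PAR bZIP factor, followed Dbp and Tef, with 3.31, 3.25, 4.18 and 14.6 CPM against 1.65, 9.15, 3.33 and 11.6 CPM.

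**Figure D3:**
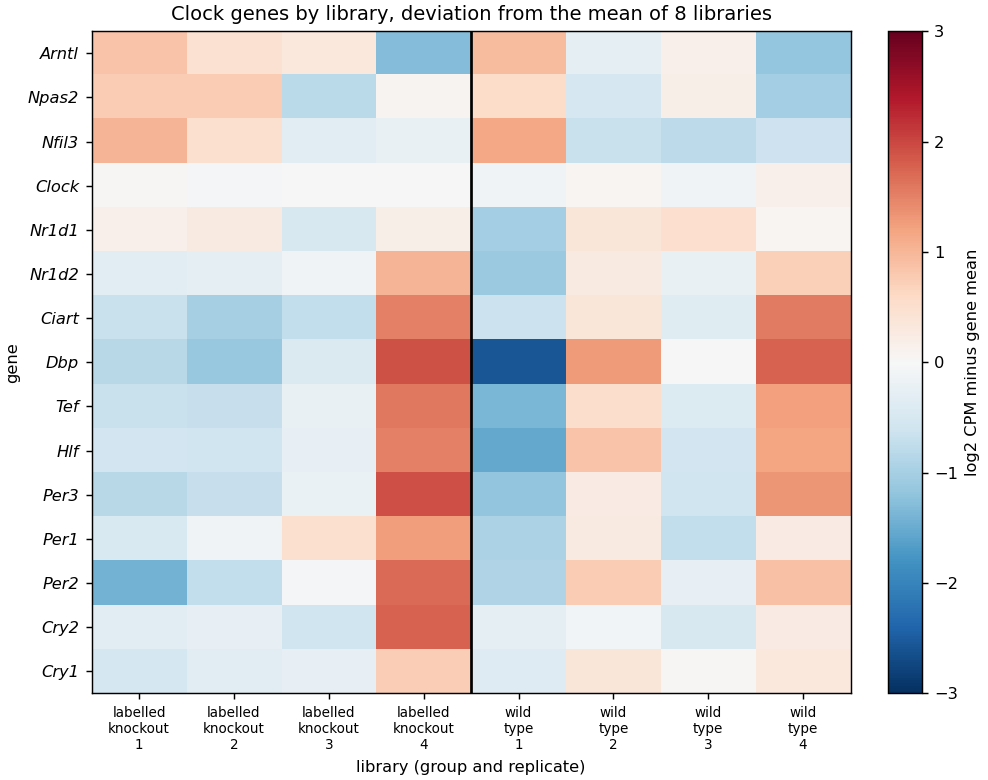
Deviation of log2 CPM from the mean of the 8 libraries (colour) for 15 clock genes (rows, in the order in which their mRNAs are known to peak, with the steady Clock among the activators) in each library (columns, labelled knockout left of the line and wild type right of it). Replicate 4 of both groups is blue for Arntl and red for Dbp, Tef, Hlf and Per3, and wild type replicate 1 shows the opposite.

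To ask whether the libraries differed in clock phase, genes known to peak at opposed times were set against each other within each library, as a difference of mean log2 CPM, which cancels depth. No clock time can be read from these values, since the labels give no reference time. They are descriptions, with no test. The mean of Per1, Per2 and Per3 minus that of Arntl and Npas2 was -1.31, -0.73, 0.73 and 2.65 in labelled knockout replicates 1 to 4, against -1.35, 1.22, -0.28 and 2.31 in the wild-type replicates. Each group thus held a library near the low end, a library near the high end and 2 in between, over a range of 4.00 log2 units. The group means were 0.33 ± 1.77 and 0.48 ± 1.62 (SD, n = 4 each), in the same order.

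The mean of Nr1d1, Nr1d2, Dbp, Tef and Ciart minus that of Arntl, Npas2 and Cry1 gave a like order. It was -0.64, -0.66, 0.046 and 1.59 in labelled knockout replicates 1 to 4 and -1.52, 0.89, -0.022 and 1.88 in the wild-type replicates. From low to high the libraries ran wild type 1, labelled knockout 2 and 1, wild type 3, labelled knockout 3, wild type 2, labelled knockout 4 and wild type 4, so the labels were interleaved. The group means were 0.083 ± 1.06 in the libraries labelled knockout and 0.31 ± 1.44 in the wild-type libraries (SD, n = 4 each). The difference of -0.22 was small beside the pooled within-group SD of 1.26, and it ran from -0.83 without wild type replicate 1 to 0.30 without wild type replicate 4. Cry1, which is subtracted here, was highest in labelled knockout replicate 4 (24.8 CPM) and wild-type replicates 2, 4 and 3 (19.2, 18.6 and 15.2 CPM). Dbp was highest in the same libraries. Cry1 thus did not run opposite to Dbp, which limits a reading of phase from this contrast and the next.

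The third contrast, Nr1d1 and Nr1d2 minus Cry1, ordered the libraries differently. It was 2.55, 2.46, 2.07 and 1.96 in labelled knockout replicates 1 to 4, against 1.43, 2.06, 2.21 and 2.17 in the wild-type replicates. Labelled knockout replicates 1 and 2 were the highest here although they were near the low end of the other 2 contrasts, and wild type replicate 1 was the lowest in all 3. The range of 1.12 log2 units was narrower. The group means were 2.26 ± 0.29 in the libraries labelled knockout and 1.97 ± 0.36 in the wild-type libraries (SD, n = 4 each), a difference of 0.30 that was 0.12 without wild type replicate 1.

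**Figure D4:**
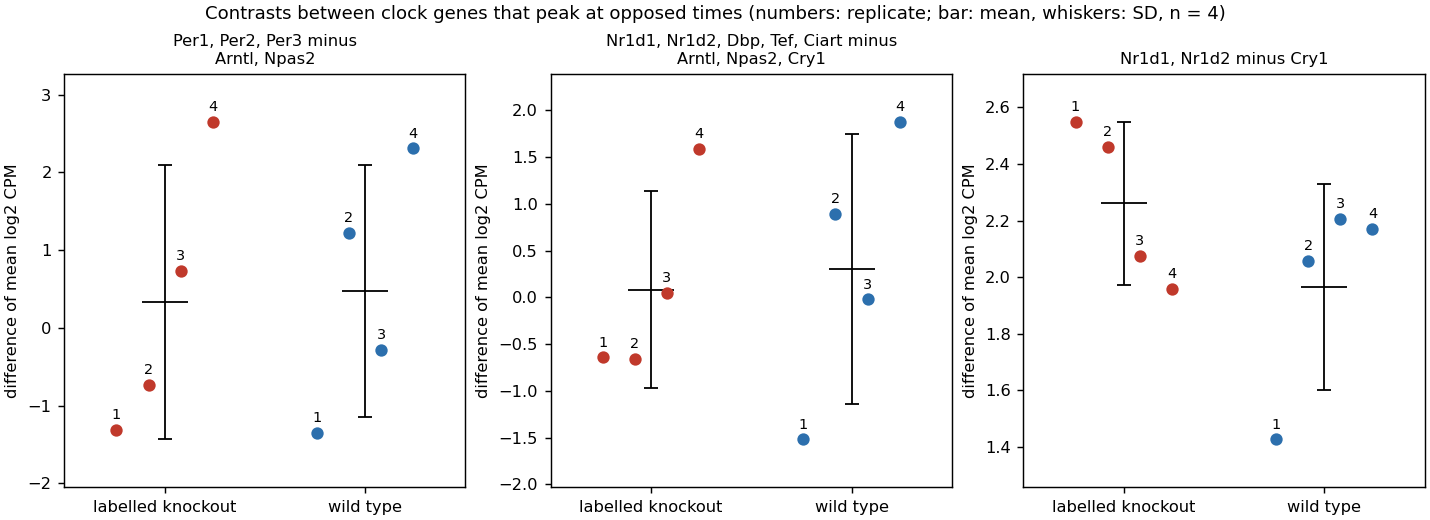
Difference of mean log2 CPM (y axis) between clock genes with opposed peak times, as named above each panel, in the 4 libraries labelled knockout and the 4 wild-type libraries, with replicate numbers; bars are means and whiskers SD (n = 4 each). The first 2 panels run from -1.35 to 2.65 and from -1.52 to 1.88, with both labels at the high and the low end.

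Pairs of clock genes were correlated across the 8 libraries to see whether they kept their known relations (12 pairs, log2 CPM, exact two-sided permutation tests with Benjamini-Hochberg adjustment over the 12). The genes were chosen with earlier results of these data known, so the permutation p-values are not independent support. Of the genes known to oppose Arntl, Dbp, Per3 and Per2 did so, whereas Nr1d1, given further below, did not pass. Dbp and Arntl had r = -0.93 (permutation p = 2.23e-04, adjusted p = 6.70e-04) and rho = -0.98 (permutation p = 3.97e-04). Per3 and Arntl had r = -0.98 (permutation p = 1.49e-04, adjusted p = 5.95e-04, rho = -0.98 with permutation p = 3.97e-04). Per2 and Arntl had r = -0.94 (permutation p = 1.49e-04, adjusted p = 5.95e-04, rho = -0.95 with permutation p = 0.00114). Without the 2 libraries farthest from the median of the first gene, r stayed at -0.93, -0.91 and -0.91.

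Genes known to run together did so for the output factors. Dbp and Tef had r = 0.97 (permutation p = 1.24e-04, adjusted p = 5.95e-04, rho = 0.98 with permutation p = 3.97e-04), and Dbp and Per3 had r = 0.90 (permutation p = 6.45e-04, adjusted p = 0.00155, rho = 0.95 with permutation p = 0.00114). Without the 2 farthest libraries these were 0.96 and 0.90. Per1 and Per2 had r = 0.81 (permutation p = 0.0139, adjusted p = 0.0277, rho = 0.79 with permutation p = 0.0279 and adjusted p = 0.0559), and 0.61 without labelled knockout replicate 4 and wild type replicate 1. Taken as deviations from each group's mean, r for that pair was 0.98.

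Nr1d1 did not pass with any of the 4 genes it was paired with. With Arntl, Dbp and Nr1d2 it had r of the known sign. It had r = -0.40 with Arntl (permutation p = 0.342, rho = -0.38 with p = 0.360) and 0.0053 with Npas2 (permutation p = 0.991, rho = 0.19 with p = 0.665). It had r = 0.60 with Dbp (permutation p = 0.125, rho = 0.33 with p = 0.428) and 0.54 with Nr1d2 (permutation p = 0.176, rho = 0.24 with p = 0.582). The adjusted permutation p of r was 0.167 to 0.991. Without labelled knockout replicate 3 and wild type replicate 1 the values for Arntl, Dbp and Nr1d2 changed sign, to 0.36, -0.27 and -0.48. Those were the libraries with the lowest Nr1d1, and over the libraries left Nr1d1 spanned only 69.4 to 93.9 CPM. An r over so narrow a range cannot decide whether the relations held. The pairs with Npas2 did not pass either, at -0.63 for Dbp and 0.60 for Arntl (permutation p = 0.1005 and 0.1198, adjusted permutation p = 0.167 for both, rho = -0.69 and 0.67 with permutation p = 0.0694 and 0.0831).

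**Figure D5:**
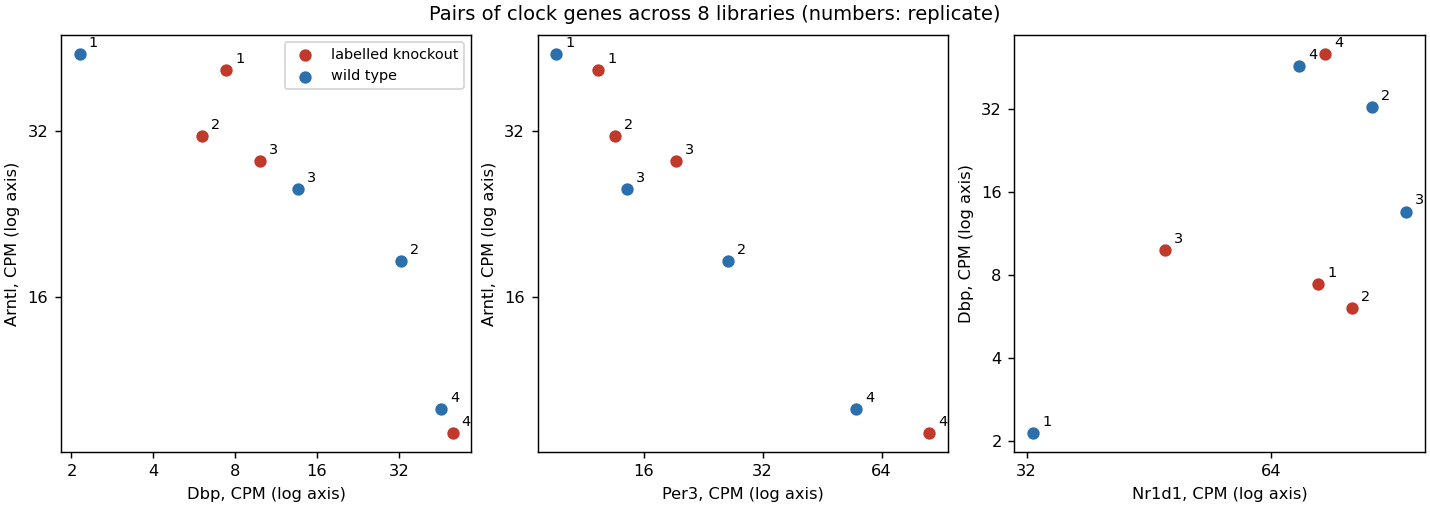
CPM of 3 pairs of clock genes (log axes) in the 8 libraries, with replicate numbers, red for labelled knockout and blue for wild type. Arntl falls as Dbp or Per3 rises over both groups (r = -0.93 and -0.98), whereas Nr1d1 and Dbp show no single line (r = 0.60).

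Cell type markers were set beside these values. Wild-type replicates 3 and 4, far apart on the contrast of the Dbp group (-0.022 and 1.88), had enterocyte marker sums of 17667 and 15374 CPM. The 8 summed markers did not all follow the sum: Sis, which is among them, was at 2359 and 4423 CPM in these libraries. Labelled knockout replicate 4, near wild type replicate 4 on that contrast (1.59), had 39552 CPM, and labelled knockout replicate 3, with a contrast of 0.046, had the lowest sum, 6509 CPM. Wild type replicate 1, lowest on the contrast, had 9406 CPM of the enterocyte sum and the highest sums of T cell markers (320 CPM, against 86.6 to 186 CPM in the libraries labelled knockout and 112 to 160 CPM in the other wild-type libraries) and of smooth muscle and stroma markers (52.0 CPM, against 12.4 to 19.7 CPM and 8.54 to 17.4 CPM). Of the 9 smooth muscle and stroma markers 4 had counts in all 8 libraries, and Acta2, Des, Col1a1, Col1a2 and Pdgfra were at 0 in at least 1. Of the 5 B and plasma cell markers 4 had counts in all libraries, with sums of 20.6 to 48.3 CPM and 16.8 to 171 CPM. The myeloid sums were 9.40 to 13.2 CPM and 9.82 to 22.7 CPM, and the red blood cell sums 8.90 to 55.1 CPM and 2.69 to 15.03 CPM, the highest in labelled knockout replicate 4. The Paneth cell sums were 14987 to 47879 CPM in the libraries labelled knockout and 16064 to 20942 CPM in the wild-type libraries. The part of cell makeup in the clock values was not tested.

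The rest of the clock pathway showed no called change either. Of the 6 activators tested none passed the threshold, 5 were above 0, and the median log2 fold change was 0.40 beside 0.011 for all genes. Npas2 was at 0.41 (SE 0.41) and Rora, a nuclear receptor that activates Arntl, at 0.51 (SE 0.38), both with edgeR adjusted p = 0.994. Rora was low, at 2.72, 3.06, 2.42 and 4.93 CPM in labelled knockout replicates 1 to 4, against 3.86, 1.76, 1.29 and 2.29 CPM in the wild-type replicates, and the groups overlapped. Arntl2, a paralogue of Arntl with a log2 fold change of 0.39 (SE 0.28), was at 3.17 ± 1.04 CPM in the libraries labelled knockout and 2.42 ± 0.28 CPM in the wild-type libraries (SD, n = 4 each), and Rorb was too low to test. Of the 4 other repressors and bZIP factors tested none passed, with a median of -0.043. Bhlhe40, an E-box repressor, was at -0.059 (SE 0.21), and its paralogue Bhlhe41 had 0 to 3 counts in the libraries labelled knockout and 0 to 6 in the wild-type libraries.

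The next list holds kinases, ubiquitin ligase parts and other factors, among them those that set the lifetime of the Per and Cry proteins. By the median of the list, these genes were steadier. Of 15 tested none passed the threshold, and the median log2 fold change was -0.045. Csnk1d and Csnk1e, the casein kinases that phosphorylate Per proteins, were at 0.098 (SE 0.11) and 0.18 (SE 0.13). Csnk1d had 187 ± 15.7 CPM in the libraries labelled knockout and 174 ± 3.37 CPM in the wild-type libraries (SD, n = 4 each), with a within-group SD at percentile 1.99. The median percentile of within-group SD was 31.0 over this list and 94.6 over the 10 clock genes. It was 84.7 over the activators, 82.8 over the other repressors and bZIP factors and 81.7 over the outputs below. The list of kinases and other factors ran from percentile 1.99 to 89.9, the latter for Usp2, which is also among the outputs. Usp2 had 24.9, 31.5, 46.0 and 71.3 CPM in labelled knockout replicates 1 to 4, against 21.3, 61.3, 37.4 and 72.7 CPM in the wild-type replicates.

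Of 28 known clock outputs tested, none passed the threshold and 19 were above 0, with a median log2 fold change of 0.13. An unadjusted edgeR p under 0.05 was found for 3 of the 28, Klf15, Klf10 and Hif3a, beside 2.7% of all genes tested. Klf15, a circadian factor of amino acid metabolism that is also induced by fasting and glucocorticoids, had 18.5, 22.4, 11.4 and 25.998 CPM in labelled knockout replicates 1 to 4, against 8.82, 7.02, 11.1 and 9.22 CPM in the wild-type replicates. It was the 1 output of the 28 whose groups did not overlap, beside 1.53% of all genes tested, with labelled knockout replicate 3 just above the highest wild-type library. Its log2 fold change was 1.11 (SE 0.25, adjusted p = 0.994 by edgeR). Klf10, a TGF-beta-inducible factor, had 40.6 ± 11.03 CPM in the libraries labelled knockout and 25.9 ± 3.80 CPM in the wild-type libraries (SD, n = 4 each), a log2 fold change of 0.65 (SE 0.20), and its groups overlapped.

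Outside the clock lists, the genes whose pattern over the 8 libraries was most like the mean of the standardized log2 CPM of Nr1d1, Nr1d2, Dbp, Tef, Per3 and Ciart were named by rank of Pearson's r, as a description, among 9328 protein-coding genes. Among the 6 highest were Nptn, Sis, Nat8f5, Atp1b1 and 2310061I04Rik, with r from 0.99 to 0.96. Sis, the brush border enzyme sucrase-isomaltase and 1 of the 8 enterocyte markers summed above, had 2482, 2158, 2028 and 5190 CPM in labelled knockout replicates 1 to 4, against 1184, 4087, 2359 and 4423 CPM in the wild-type replicates. Atp1b1, a beta subunit of the sodium pump, had 1114, 1130, 1120 and 2163 CPM in labelled knockout replicates 1 to 4, against 753, 1809, 1367 and 1640 CPM in the wild-type replicates. For both genes the high libraries were labelled knockout replicate 4 and wild-type replicates 2 and 4, as for Dbp and Tef. Among the 6 lowest were Myo10, Fut11, Rnaseh1, Metap1d and St5, with r from -0.97 to -0.95. Myo10, an unconventional myosin, had 40.8 CPM in labelled knockout replicate 4 against 63.3 to 64.3 CPM in the rest of its group, and 46.7 to 72.4 CPM in the wild-type libraries, with the highest value in replicate 1. These genes were picked from 9328 for their r over 8 libraries, and no test was made.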

How the data were processed

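Per the labels' protocols, crypt RNA was isolated with TRIzol and the library kit keeps strand. The submitters' processing notes name HISAT2 and DESeq2, without roles. The read counter, its strand setting and the build were not stated in what was used here. Positions are on GRCm38, because 99.5% of the 55144 identifiers in common with GENCODE M21 have the same coordinates there, all 10 clock genes included.

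The authors deposited whole-number counts per gene, used for the tests, and FPKM, used to compare levels between genes. Their deposited group means (a normalized signal), log2 fold changes and p-values are not quoted. The heat map table was not used.

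The test was edgeR 4.0.16 (R 4.3.3) with TMM, filterByExpr, a robust quasi-likelihood fit with group alone and Benjamini-Hochberg adjustment over all genes at 0.05, checked on simulated data. SE is the absolute log2 fold change over the square root of F. CPM use TMM library sizes, and log2 CPM a prior count of 2. Other settings tried were DESeq2 1.42.0, limma-voom (limma 3.58.1), RLE scaling, no filter, a minimum of 5 CPM in 4 libraries, the replicate number as a block, each library left out, a prior count of 0.5, log2 of FPKM + 0.1, and single genes in the contrasts. Permutations were exact, over 40320 arrangements. Every pair of libraries within a group differed beyond sampling noise, with a chi-square of 32.3 or more for each degree of freedom. Intervals cover counting error only.

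Genes named are the 10, core clock genes, the smallest p of each list and the 6 highest and lowest r among genes with a mean log2 CPM above 3; a few that this rule picks are not reported here. The genes, lists and contrasts were chosen with earlier results of these data known.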

Additional observations from a re-analysis of the deposited data

Results flagged for a closer look

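For 23 measures (20 clock genes and 3 contrasts) the highest or lowest library of each group was compared with the other 3 by the ratio of its gap to the group's range. Of 46 groups 5 passed Dixon's 95% critical value for 4 values, where chance gives about 1 in 20. In 4 of them labelled knockout replicate 4 was far above the rest of its group. Cry2 was at 5.97 log2 CPM there, against 3.60 to 3.96 in the other 3 libraries, and Ciart was at 2.64 against 0.15 to 0.46. Nr1d2 was at 6.98 against 5.66 to 5.87 and Hlf at 3.88 against 1.76 to 2.11. The other was Nfil3 in wild type replicate 1, at 4.61 log2 CPM against 2.68 to 2.83 in the other wild-type libraries.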

How the results depend on the processing

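No clock gene was called under any alternative run (smallest adjusted p = 0.610). The number of genes called over the whole table was 3, against 22 with DESeq2 and 5 without a filter, and 2 to 3 when each library was left out. It was 2 with the contrast of the Dbp group as a covariate, an alternative chosen after seeing the data. The replicate block gave 2. Same-numbered libraries did not pair: the correlations of their deviations from the group means, over all genes tested, were 0.075, 0.034, -0.388 and -0.087. The direction of 9 of the 10 clock genes changed under at least 1 alternative, all but Per1, and 5 changed sign without labelled knockout replicate 4. Per2 was at -0.27 with limma-voom and -0.25 with the replicate block, and Nr1d1 at 0.053 and 0.046. The cause was not tested. Leaving out each library gave log2 fold changes of -0.93 to 0.37 for Per2, -0.81 to 0.93 for Per3, -0.49 to 0.015 for Cry1, -0.25 to 0.89 for Cry2, -0.27 to 0.14 for Nr1d1, -0.27 to 0.44 for Nr1d2, -1.59 to 0.18 for Dbp, -0.80 to 0.55 for Tef and -1.38 to 0.33 for Ciart. Per1 stayed at 0.22 to 0.84. The contrast differences ranged from -0.91 to 0.47 (Per genes), -0.83 to 0.30 (Dbp group) and 0.12 to 0.40 (Nr1d genes minus Cry1). Of 12 correlations 6 passed by Pearson's r, also with RLE size factors and as deviations from group means, and 5 of those 6 by Spearman's rho, the exception being Per1 with Per2. The value for Nr1d1 and Npas2 was -0.012 as deviations from group means, and without the 2 farthest libraries Nr1d1 gave 0.36 with Arntl, -0.27 with Dbp and -0.48 with Nr1d2. With 4 libraries a group, the SEs of the 10 log2 fold changes were 0.30 to 0.90, which limits what could be called.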

Other observations

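The ratio of Per2, which peaks late, to Nr1d1, which peaks earlier, was taken after its values were seen. In CPM it was 0.20, 0.29, 0.80 and 1.71 in labelled knockout replicates 1 to 4, against 0.65, 0.79, 0.35 and 1.05 in the wild-type replicates. Labelled knockout replicate 3 and wild type replicate 2 had nearly the same ratio, yet Dbp was at 9.84 CPM in the first and 32.5 CPM in the second. The ratio of Dbp to Arntl was 0.18, 0.19, 0.35 and 5.55 in the libraries labelled knockout, against 0.049, 1.74, 0.54 and 4.55 in the wild-type libraries. Over the 14 clock genes of both arms, deviations from the group means correlated at 0.92 between the 2 libraries numbered 4 and at 0.79 between those numbered 1. For the numbers 2 and 3 the values were -0.76 and -0.18. Pairs of unlike number ran from -0.96 (labelled knockout 2 with wild type 4) to 0.83 (labelled knockout 2 with wild type 1). All are given as a description across genes that are not independent.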
